A study of Mus musculus with 6 samples.

Results

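The transcription factors described here are 9 genes that direct the oligodendrocyte lineage: Olig1, Olig2, Sox10, Sox8, Sox5, Sox6, Nkx2-2, Myrf and Zfp488. They were chosen by their known roles, with earlier results of these data also known, and all 9 were found among the 18211 genes of the deposited table. Levels come from RNA sequencing of oligodendrocyte precursor cells (OPCs), isolated from the brain of C57BL/6 mice at postnatal day 7 (P7) by immunopanning on Pdgfrα, a surface receptor of OPCs. The 3 DISC1-Δ3 libraries came from NG2-CreERTM:DISC1 exon3 fl/+ mice, in which a tamoxifen-inducible Cre removes exon 3 from one Disc1 allele in cells with an active NG2 promoter, and the 3 wildtype libraries came from mice described as non-CreERT. Both groups received tamoxifen by gavage on each of the 4 days from P4 to P7. The NG2 promoter is also active in pericytes, and the share of cells that had recombined was not given in the sources used here. Neither the sex of the pups nor the number of pups behind a library was given, so p-values measure the spread between these libraries.

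Oligodendrocytes, the myelin-forming glia of the brain, arise from OPCs through a cascade of transcription factors. Olig1 and Olig2 are basic helix-loop-helix proteins, and Olig2 specifies the lineage and stays on throughout it. Sox10 and its close relative Sox8 are high-mobility-group proteins that activate myelin genes, whereas Sox5 and Sox6 keep precursors from differentiating early. Nkx2-2 is a homeodomain repressor that takes part in the step out of the precursor state, Myrf is the membrane-bound factor that switches on myelin genes with Sox10, and Zfp488 is a zinc-finger partner of Olig2. The comparison between genotypes asks whether the program of the lineage differed in OPCs with the shortened Disc1 transcript.

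The libraries held 13716631 to 16417232 assigned reads. Disc1 itself was at 3.51, 3.34 and 3.81 RPKM (reads per kilobase of transcript, scaled to the library total) in wildtype replicates 1 to 3 and at 2.86, 2.44 and 2.85 in DISC1-Δ3 replicates 1 to 3, with all DISC1-Δ3 values lower (log2 fold change -0.45, SE 0.088, edgeR adjusted p = 0.000528). These values cover the whole gene and do not resolve exon 3. The markers of the labelled cell type were present: Pdgfra was at 17.2 to 18.1 RPKM in wildtype and 25.0 to 26.8 in DISC1-Δ3 libraries, and Cspg4, which encodes NG2, was at 14.4 to 17.2 and 21.4 to 24.2. Markers of other cells were also present and differed between genotypes. The summed level of 15 microglia markers was 17217 to 17696 RPKM in wildtype and 12100 to 12510 in DISC1-Δ3 libraries. It was 610 to 634 and 791 to 817 for 15 OPC markers, of which Olig1, Olig2 and Sox10 are 3. Olig1 alone made up 249 to 256 RPKM of the OPC sum in wildtype and 312 to 339 in DISC1-Δ3 libraries. All 15 microglia markers were lower in DISC1-Δ3 libraries, and 10 OPC markers were higher and 2 lower, by the edgeR test. Olig1 and Olig2 are among those 10. Of all 13792 tested genes, 20.4% were called higher and 19.5% lower. The Y-linked genes Ddx3y, at 3.52 to 3.99 RPKM in wildtype and 0.84 to 0.97 in DISC1-Δ3 libraries, and Kdm5d, at 1.73 to 2.10 and 0.44 to 0.53, also differed, so genotype and the sex of the pups cannot be told apart. In bulk RNA, fewer cells of a type and less RNA per cell cannot be told apart either. All levels are those of whole libraries, and wildtype or DISC1-Δ3 OPCs below means the libraries labelled so.

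In wildtype libraries, Olig1 was the most abundant of the 9 factors at 251.5 RPKM ± 3.48 (SD, n = 3). Olig2 followed at 38.0 RPKM ± 1.64, then Sox10 at 34.6 RPKM ± 1.61. Zfp488 and Sox8 came next, at mean levels of 22.0 and 21.2 RPKM, and their ranges over the 3 libraries overlapped. Below them Myrf was at 18.1 RPKM, Nkx2-2 at 7.75, Sox6 at 3.65 and Sox5 at 2.85, each apart from its neighbours in this order. RPKM is scaled to transcript length, so these levels can be set beside each other within a library. In DISC1-Δ3 libraries the upper and lower ends of the order held: Olig1, Olig2 and Sox10 led, and Sox6 and Sox5 were lowest. In the middle, Sox8 at 26.5 RPKM stood above Zfp488 at 18.2, and the ranges of Myrf at 13.9 and Nkx2-2 at 13.2 overlapped, whereas in wildtype libraries Myrf was above Nkx2-2 without overlap.

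**Figure D1:**
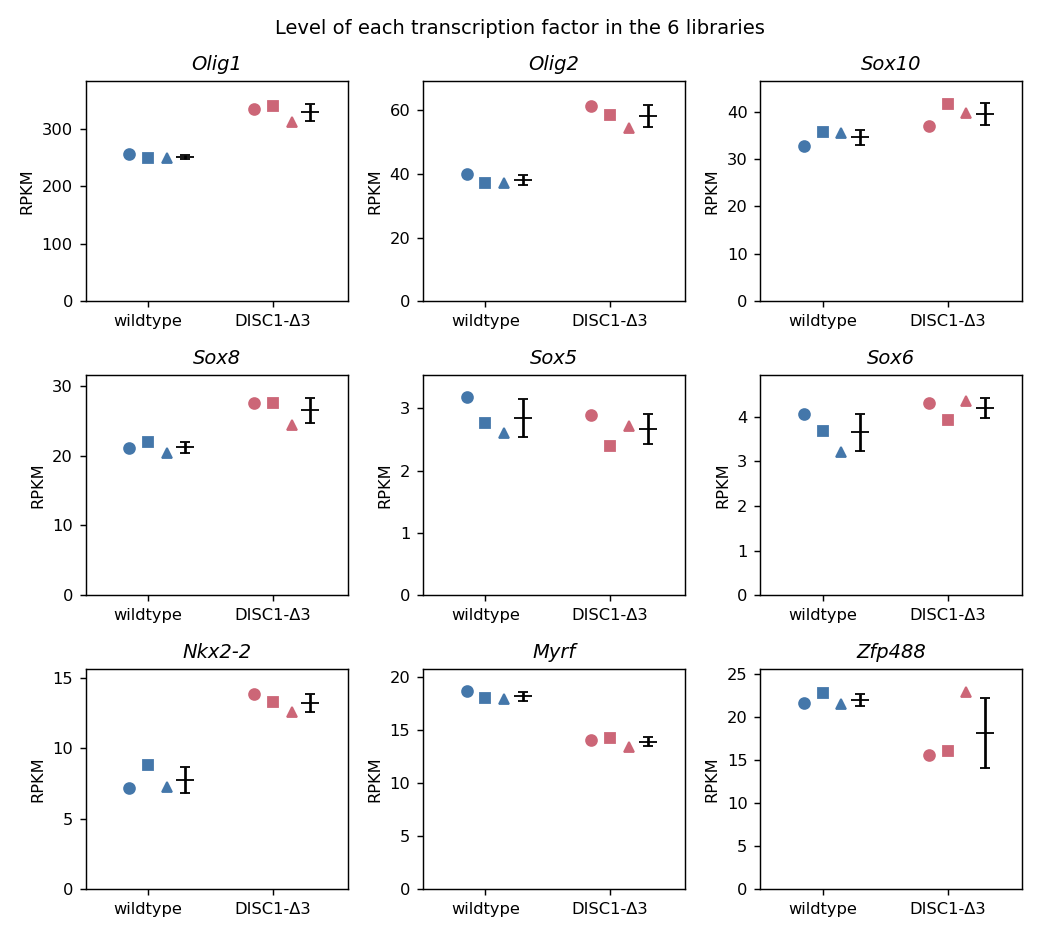
RPKM (linear axis from 0) of each of the 9 factors in wildtype (blue) and DISC1-Δ3 (red) libraries. Circles, squares and triangles are replicates 1, 2 and 3, and the black bars give the mean and SD of 3 libraries. The groups are apart for Olig1, Olig2, Sox10, Sox8, Nkx2-2 and Myrf, and DISC1-Δ3 replicate 3 lies above the wildtype libraries for Zfp488.

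Between genotypes the factors moved in different directions. Nkx2-2, Olig2, Olig1 and Sox8 were higher in DISC1-Δ3 OPCs, Myrf and Zfp488 were lower, and Sox10, Sox6 and Sox5 did not pass the threshold of an edgeR adjusted p of 0.05. Thus 4 of 9 were called higher, where 20.4% of all 13792 tested genes were, and 2 of 9 were called lower, where 19.5% of all tested genes were. Calls in either direction took in 39.9% of all tested genes, so calls were frequent in this comparison as a whole. The median log2 fold change of the 9 was 0.11, against 0.01 over all tested genes. For 6 of the 9, the RPKM ranges of the groups did not overlap, which was the case for 52.0% of tested genes. DISC1-Δ3 libraries were above in 5 of these 6 and below in 1, against 35.9% and 16.1% of tested genes.

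**Figure D2:**
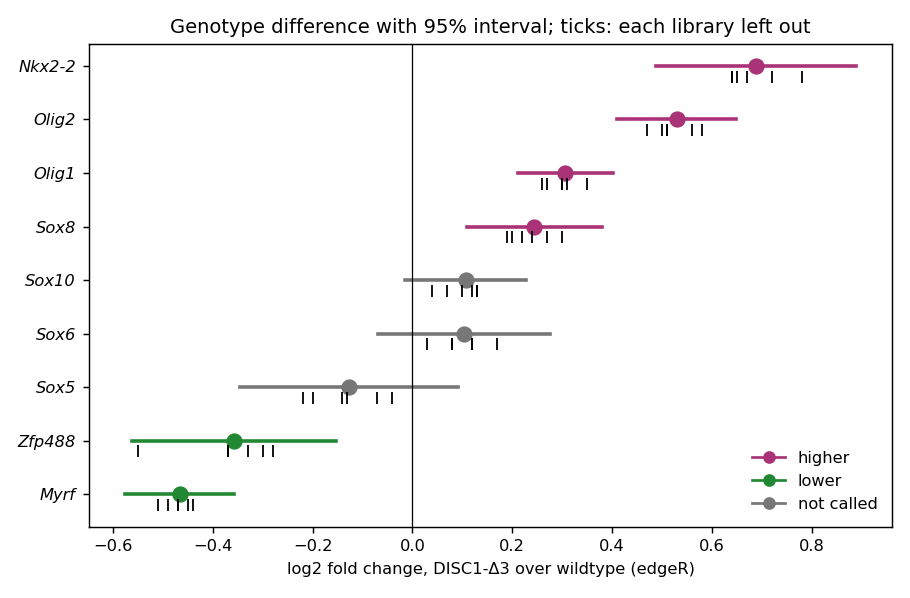
Log2 fold change of each factor in DISC1-Δ3 over wildtype OPCs, from the edgeR fit of 3 against 3 libraries (dots) with its 95% confidence interval (lines). The black ticks give the value with each of the 6 libraries left out in turn. Nkx2-2 is at the top with 0.69 and Myrf at the bottom with -0.47, and the intervals of Sox10, Sox6 and Sox5 cross 0.

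Upstream sequence is printed for Nkx2-2, Olig2 and Sox8, which were called higher, so that factors that rose together can be set side by side. Each stretch is the part outside GENCODE exons of the gene itself of the 250 bases before a RefSeq start site (build GRCm38.p6), read 5′ to 3′ on the strand of the gene. Capitals mark CTTTG or its reverse complement CAAAG, the core bound by high-mobility-group proteins such as Sox and TCF/LEF factors, and CANNTG, the E-box bound by helix-loop-helix proteins such as Olig1 and Olig2. No marked motif overlaps another. Nkx2-2 was read from chr2:147186456-147186652 (minus strand, in an intron of longer transcripts and before an internal start), Olig2 from chr16:91225300-91225456 (plus strand) and Sox8 from chr17:25570687-25570936 (minus strand, where the antisense gene 2810468N07Rik has exons on the other strand).
Nkx2-2: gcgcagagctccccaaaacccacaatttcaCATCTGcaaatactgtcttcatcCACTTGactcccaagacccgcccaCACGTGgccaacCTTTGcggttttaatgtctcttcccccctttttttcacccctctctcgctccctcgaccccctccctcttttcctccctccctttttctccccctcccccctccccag
Olig2: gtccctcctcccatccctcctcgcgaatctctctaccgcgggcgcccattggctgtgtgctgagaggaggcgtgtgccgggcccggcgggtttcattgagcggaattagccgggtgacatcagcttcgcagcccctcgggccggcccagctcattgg
Sox8: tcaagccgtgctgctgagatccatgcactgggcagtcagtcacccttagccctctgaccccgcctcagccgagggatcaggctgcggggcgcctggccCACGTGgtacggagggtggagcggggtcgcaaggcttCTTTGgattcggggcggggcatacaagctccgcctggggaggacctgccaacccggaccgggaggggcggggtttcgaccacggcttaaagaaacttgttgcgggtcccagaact
The Nkx2-2 stretch holds 3 E-boxes and 1 CTTTG, the Sox8 stretch 1 of each, and the Olig2 stretch none of these letters. On either strand, CTTTG occurs in 48.6% of 32851 RefSeq promoter windows of 250 bases, and CANNTG in 66.2%. The longer TCF/LEF sequence CTTTGAT occurs in 3.21% of windows and in none of the 3 printed stretches. These matches describe the windows alone. Olig1, Sox10 and Myrf had no promoter entry, and the windows of Sox5, Sox6 and Zfp488 are not printed. Among these, a Sox6 window holds 1 CTTTGAT. The window of Zfp488, which was called lower, holds 1 CTTTG and no E-box, and the Sox5 window holds none of these motifs.

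Both Olig genes were higher in DISC1-Δ3 OPCs. Olig2 (gene ID 50913, chr16:91225550-91228677) was at 39.9, 37.2 and 37.0 RPKM in wildtype replicates 1 to 3, and at 61.4, 58.3 and 54.4 RPKM in DISC1-Δ3 replicates 1 to 3. The lowest DISC1-Δ3 library was above the highest wildtype library. The log2 fold change was 0.53 (SE 0.057, 95% confidence interval 0.41 to 0.65, edgeR adjusted p = 7.19e-07). Olig1 (gene ID 50914, chr16:91269769-91271939), which lies on the same chromosome and strand, was at 255.5, 249.3 and 249.7 RPKM in wildtype and 335.2, 339.1 and 312.0 RPKM in DISC1-Δ3 libraries. Its groups did not overlap either, and its log2 fold change was smaller, at 0.31 (SE 0.045, 0.21 to 0.40, edgeR adjusted p = 3.04e-05). Within a library, the ratio of Olig1 to Olig2 RPKM was 6.62 ± 0.190 (SD, n = 3) in wildtype and 5.67 ± 0.186 in DISC1-Δ3 OPCs. The 2 sets of ratios did not overlap, and the exact two-sided permutation p of 0.1 is the smallest that 3 against 3 libraries allow (0.125 after Benjamini-Hochberg adjustment over 5 ratios). An exon of Olig1 overlaps the noncoding gene Gm15966 on the other strand, and whether the counting used strand was not given in the sources used here.

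Nkx2-2 (gene ID 18088, chr2:147176485-147195434), the homeodomain repressor, showed the largest change of the 9. It was at 7.17, 8.83 and 7.25 RPKM in wildtype and at 13.8, 13.3 and 12.6 RPKM in DISC1-Δ3 replicates 1 to 3. All DISC1-Δ3 libraries were above all wildtype libraries, at 375, 407 and 389 reads against 188, 272 and 229. The log2 fold change was 0.69 (SE 0.095, 95% confidence interval 0.49 to 0.89, edgeR adjusted p = 1.51e-05). Exons of Nkx2-2 overlap the antisense gene Nkx2-2os, which was not in the table, so reads of the pair could not be separated here.

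The closely related Sox10 and Sox8 differed in whether they passed the test. Sox8 (gene ID 20681, chr17:25565893-25570686) was at 21.1, 22.0 and 20.4 RPKM in wildtype and 27.5, 27.6 and 24.5 RPKM in DISC1-Δ3 replicates 1 to 3. The groups did not overlap, and the log2 fold change was 0.24 (SE 0.064, 95% confidence interval 0.11 to 0.38, edgeR adjusted p = 0.00571). Sox10 (gene ID 20665, chr15:79154913-79164490) was at 32.8, 35.6 and 35.4 RPKM in wildtype and 36.95, 41.6 and 39.7 RPKM in DISC1-Δ3 libraries. These RPKM groups did not overlap, yet after TMM scaling the log2 fold change of 0.11 (SE 0.057, -0.01 to 0.23) did not pass the threshold (edgeR adjusted p = 0.151). Scaled by library totals alone, Sox10 was called higher at 0.19 (edgeR adjusted p = 0.0124), and over all 14 alternatives its adjusted p ran from 0.0124 to 0.656. The ratio of Sox8 to Sox10 RPKM was 0.612 ± 0.034 (SD, n = 3) in wildtype and 0.675 ± 0.0655 in DISC1-Δ3 libraries, with overlap (exact permutation p = 0.3), so a difference between the changes of the pair was not shown. Exons of Sox8 overlap the antisense gene 2810468N07Rik.

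Sox5 and Sox6, the pair that holds back differentiation, were the least abundant factors and did not pass the test. Sox6 (gene ID 20679, chr7:115470872-116040776) was at 4.06, 3.68 and 3.22 RPKM in wildtype and 4.31, 3.94 and 4.36 RPKM in DISC1-Δ3 libraries. Sox5 (gene ID 20678, chr6:143828425-144782287) was at 3.18, 2.76 and 2.60 RPKM in wildtype and 2.89, 2.40 and 2.72 RPKM in DISC1-Δ3 libraries. For both genes the groups overlapped. The log2 fold changes were 0.10 for Sox6 (SE 0.082, 95% confidence interval -0.07 to 0.28, edgeR adjusted p = 0.338) and -0.13 for Sox5 (SE 0.10, -0.34 to 0.09, edgeR adjusted p = 0.357). Counts were 436 to 571 reads for Sox6 and 272 to 319 for Sox5, and the intervals leave room for changes of the size seen for Sox8. The ratio of Sox5 to Sox6 RPKM was 0.780 ± 0.0288 (SD, n = 3) in wildtype and 0.635 ± 0.0321 in DISC1-Δ3 libraries, without overlap (exact permutation p = 0.1, adjusted 0.125). Exons of Sox5 overlap the antisense gene Sox5os1.

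Myrf and Zfp488, which promote differentiation, were lower in DISC1-Δ3 OPCs. Myrf (gene ID 225908, chr19:10208271-10240777) was at 18.6, 18.0 and 17.9 RPKM in wildtype and 14.0, 14.2 and 13.4 RPKM in DISC1-Δ3 replicates 1 to 3. The highest DISC1-Δ3 library was below the lowest wildtype library, and the log2 fold change was -0.47 (SE 0.052, 95% confidence interval -0.58 to -0.36, edgeR adjusted p = 1.21e-06). The ratio of Myrf to its partner Sox10 was 0.525 ± 0.037 (SD, n = 3) in wildtype and 0.353 ± 0.0236 in DISC1-Δ3 libraries, also without overlap (exact permutation p = 0.1, adjusted 0.125).

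Zfp488 (gene ID 382867, chr14:33967070-33979034) was at 21.6, 22.8 and 21.5 RPKM in wildtype and 15.6, 16.0 and 22.9 RPKM in DISC1-Δ3 replicates 1 to 3. On the RPKM scale, DISC1-Δ3 replicates 1 and 2 were below every wildtype library. DISC1-Δ3 replicate 3 was above every one, at 22.85 RPKM against 22.79 in wildtype replicate 2, so the RPKM groups overlapped. RPKM is not TMM scaled, and the TMM factor was 1.04 for this library and 0.970 to 0.973 in wildtype. After that scaling it no longer lay above the wildtype libraries. The log2 fold change was -0.36 (SE 0.097, 95% confidence interval -0.56 to -0.15, edgeR adjusted p = 0.00692). Without DISC1-Δ3 replicate 3 it was -0.55 (edgeR adjusted p = 5.26e-09), and DESeq2 did not call it over all 6 libraries (-0.37, adjusted p = 0.0766, the highest of 14 alternatives). The deposited counts of Zfp488 were fractional, unlike those of the other 8 factors, and were rounded. Relative to Sox10, Zfp488 was 0.635 ± 0.0258 (SD, n = 3) in wildtype and 0.461 ± 0.101 in DISC1-Δ3 libraries, and these ratios did not overlap (exact permutation p = 0.1, adjusted 0.125).

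Since most OPC markers were higher and microglia markers lower in DISC1-Δ3 libraries, each factor was also set against Pdgfra in the same library, a comparison chosen after these values were seen. Relative to Pdgfra, Olig2 was at 2.18 ± 0.0306 (SD, n = 3) in wildtype and 2.24 ± 0.123 in DISC1-Δ3 libraries, a log2 difference of 0.04 with overlap (exact permutation p = 0.4). Nkx2-2 was at 0.444 ± 0.0608 and 0.512 ± 0.0235, also with overlap (log2 difference 0.21, exact permutation p = 0.2). Thus the rises of Olig2 and Nkx2-2 were not seen beyond the spread on this scale. The other 7 factors were lower relative to Pdgfra without overlap, each at the smallest exact permutation p of 0.1 (0.129 after Benjamini-Hochberg adjustment over 9). Myrf went from 1.04 ± 0.00681 to 0.537 ± 0.0285, a log2 difference of -0.95, and Zfp488 from 1.26 ± 0.0646 to 0.703 ± 0.160, a difference of -0.86. Sox5 differed by -0.66, Sox10 by -0.38, Sox6 by -0.36, Sox8 by -0.24 and Olig1 by -0.18. Myrf was therefore lower on both scales without overlap. Zfp488 was lower relative to Pdgfra without overlap, while its RPKM groups overlapped and its lower call came from the edgeR fit. Olig1 and Sox8 were higher on the RPKM scale and lower relative to Pdgfra.

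Pdgfra is one of the OPC markers that rose, and the direction relative to a marker depended on which marker was taken. Ptprz1, a receptor phosphatase, and Tnr, an extracellular matrix protein, fell (log2 fold changes -0.35 and -0.37, edgeR adjusted p = 9.16e-05 and 0.000149), and Vcan and Neu4 were not called. Each factor was therefore set against all 12 OPC markers that are not among the 9, also after the data were seen and as a description without a further test. Myrf was lower relative to 10 of the 12 markers without overlap, and relative to Ptprz1 and Tnr its groups overlapped (log2 differences -0.12 and -0.09). Zfp488 was lower relative to 8 without overlap and overlapped for 4. Nkx2-2 was higher relative to 6 and Olig2 relative to 5 without overlap, and Olig2 was lower relative to 2. Olig1 and Sox8 were each lower relative to 7 markers and higher relative to 3, with Olig1 from -0.50 to 0.68 and Sox8 from -0.57 to 0.62. Sox6 was lower relative to 7 and higher relative to 3, Sox10 lower relative to 7 and higher relative to 2, and Sox5 lower relative to 9. No single direction relative to OPC markers thus holds for Olig1, Olig2, Sox8, Sox10 and Sox6.

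**Figure D3:**
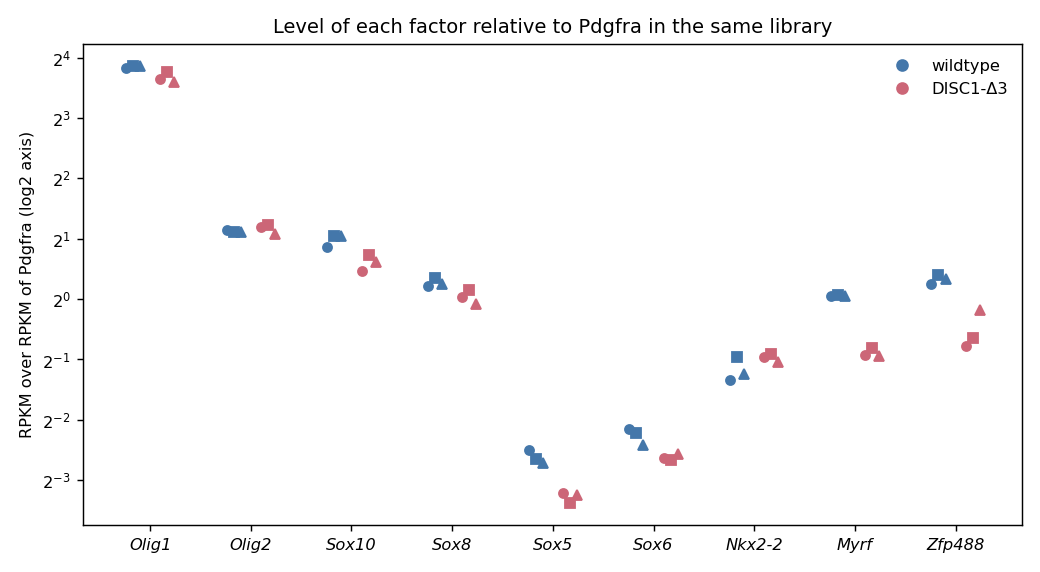
RPKM of each factor divided by the RPKM of Pdgfra in the same library (log2 axis), in wildtype (blue) and DISC1-Δ3 (red) libraries. Circles, squares and triangles are replicates 1, 2 and 3. The groups overlap for Olig2 and Nkx2-2, and Myrf and Zfp488 lie lower in DISC1-Δ3 libraries.

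Other cell types were measured beside these results, and their part in them was not tested. Of the tested markers, 6 of 10 for mature oligodendrocytes and 8 of 12 for astrocytes were lower in DISC1-Δ3 libraries, with 2 astrocyte markers higher. For neurons 9 of 14 were higher, for endothelium 6 of 10, and for pericytes and vascular smooth muscle 8 of 9. Calls over all tested genes were 20.4% higher and 19.5% lower. Summed levels in wildtype and DISC1-Δ3 libraries were 2534 to 2567 and 2330 to 2365 RPKM for mature oligodendrocytes, 2275 to 2320 and 2190 to 2213 for astrocytes, 417 to 420 and 518 to 533 for neurons, 194 to 203 and 253 to 259 for endothelium, and 155 to 164 and 220 to 228 for pericytes. Schwann and neural crest cells share Sox10 with this lineage, and 3 of their 9 markers passed the expression filter, of which 1 was lower.

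Among 35 other regulators of the lineage, all tested, 15 were higher and 5 lower in DISC1-Δ3 libraries, and 15 did not pass the test. Their median log2 fold change was 0.11, as for the 9 factors. Over all tested genes, 20.4% were called higher and 19.5% lower. Sox2, a factor of neural progenitors and precursors, rose from 48.5 RPKM ± 1.89 (SD, n = 3) to 63.1 ± 1.04 (log2 fold change 0.30, SE 0.048, edgeR adjusted p = 6.93e-05). Tcf4 and Tcf12, the E proteins that pair with Olig1 and Olig2 and whose naming here followed a look at their values, rose by 0.23 and 0.38. Nkx6-1, a homeodomain factor of the ventral neural tube, had 3, 3 and 0 reads in wildtype and 30, 36 and 21 in DISC1-Δ3 libraries. It passed the expression filter only through the DISC1-Δ3 libraries, so its call, 1 of the 15 higher, is not a separate result.

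The antagonists of helix-loop-helix factors split. Id2, which sequesters E proteins, fell from 243.4 RPKM ± 5.31 (SD, n = 3) to 191.3 ± 6.94 (log2 fold change -0.43, edgeR adjusted p = 4.01e-07), and Hes1, a Notch effector, fell from 59.7 to 45.8 RPKM (-0.46, edgeR adjusted p = 2.22e-06). Id1 rose from 22.6 to 32.0 RPKM (0.42, edgeR adjusted p = 0.00138), and Id3, added here with its value in view, rose from 76.6 to 102.9 RPKM (0.35, edgeR adjusted p = 0.000134). Id4 (0.03), Hes5 (0.12), Myt1 (0.11) and Tcf7l2 (0.01), the Wnt-responsive factor of differentiating oligodendrocytes, did not pass the test. The zinc-finger factors Klf6 and Klf9 fell by 0.34 and 0.28, and Klf9 lost the call with both limma fits (-0.18 and -0.20, adjusted p = 0.0588 and 0.0571). Hes5 was called higher without DISC1-Δ3 replicate 3 (0.17, edgeR adjusted p = 0.0140), with library totals alone (0.21, edgeR adjusted p = 0.00785) and with both limma fits (0.19 and 0.20, adjusted p = 0.00917 and 0.00976). Sox9, which is also counted among the astrocyte markers, was called higher at 0.14, and Sox17 at 0.50. Each lost the call with DESeq2 (adjusted p = 0.0701 and 0.0637). Sox9 also lost it without wildtype replicate 2 or 3 or DISC1-Δ3 replicate 1 or 2 (edgeR adjusted p = 0.0897 to 0.114), and Sox17 without wildtype replicate 1 or 3 or DISC1-Δ3 replicate 1 or 2 (edgeR adjusted p = 0.0512 to 0.0910).

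Of 27 genes known to be bound or driven by Sox10 and Myrf, 26 were tested. Of these, 11 were lower and 5 higher in DISC1-Δ3 libraries and 10 did not pass. Their median log2 fold change was -0.18. Over all tested genes, 19.5% were called lower and 20.4% higher, so the share of targets called higher was near that of all genes. The lower genes included Enpp6, an enzyme of newly formed oligodendrocytes, at 14.4 RPKM ± 0.651 (SD, n = 3) in wildtype and 8.51 ± 0.539 in DISC1-Δ3 libraries (log2 fold change -0.88, SE 0.074, edgeR adjusted p = 3.61e-08). Trf, which encodes transferrin, fell from 489.7 to 316.5 RPKM (-0.71, edgeR adjusted p = 4.55e-10). Genes of the myelin sheath and its axonal contacts were among the lower ones: Nfasc fell by 0.60 and Mag by 0.54. Mbp fell by 0.16, from 1807 to 1710 RPKM (edgeR adjusted p = 0.00434). It lost the call with scaling by library totals (-0.08, edgeR adjusted p = 0.0736) and with both limma fits (-0.08 in each, adjusted p = 0.0909 and 0.0837). Over 14 alternatives its adjusted p ran from 0.000341 to 0.0909.

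The 5 higher genes included Gpr17, a receptor of committed precursors, which rose from 61.7 RPKM ± 1.49 (SD, n = 3) to 104.4 ± 3.71 (log2 fold change 0.68, SE 0.044, edgeR adjusted p = 1.39e-09). Bmp4, a secreted ligand made by committed precursors, rose from 3.87 to 8.66 RPKM (0.995, edgeR adjusted p = 1.70e-06), and Gjb1, a gap-junction protein, from 3.13 to 5.70 RPKM (0.78, edgeR adjusted p = 0.000411). Cntn2, a cell adhesion protein, was called higher at 0.25 (edgeR adjusted p = 0.0233). It lost the call with DESeq2 (adjusted p = 0.0769) and with limma on log2(RPKM + 0.1) (adjusted p = 0.0524). The call was also lost without wildtype replicate 2 or 3 or DISC1-Δ3 replicate 1 or 2 (edgeR adjusted p = 0.0526 to 0.10). Tmem98, which restrains the cleavage that frees Myrf from its membrane, was at 25.1 RPKM ± 0.803 (SD, n = 3) and 26.7 ± 1.93 (0.01, edgeR adjusted p = 0.906). Calls among the genes listed as targets thus went both ways. Of 26, 11 were lower, against 19.5% of all tested genes, and 5 were higher, against 20.4%.

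**Figure D4:**
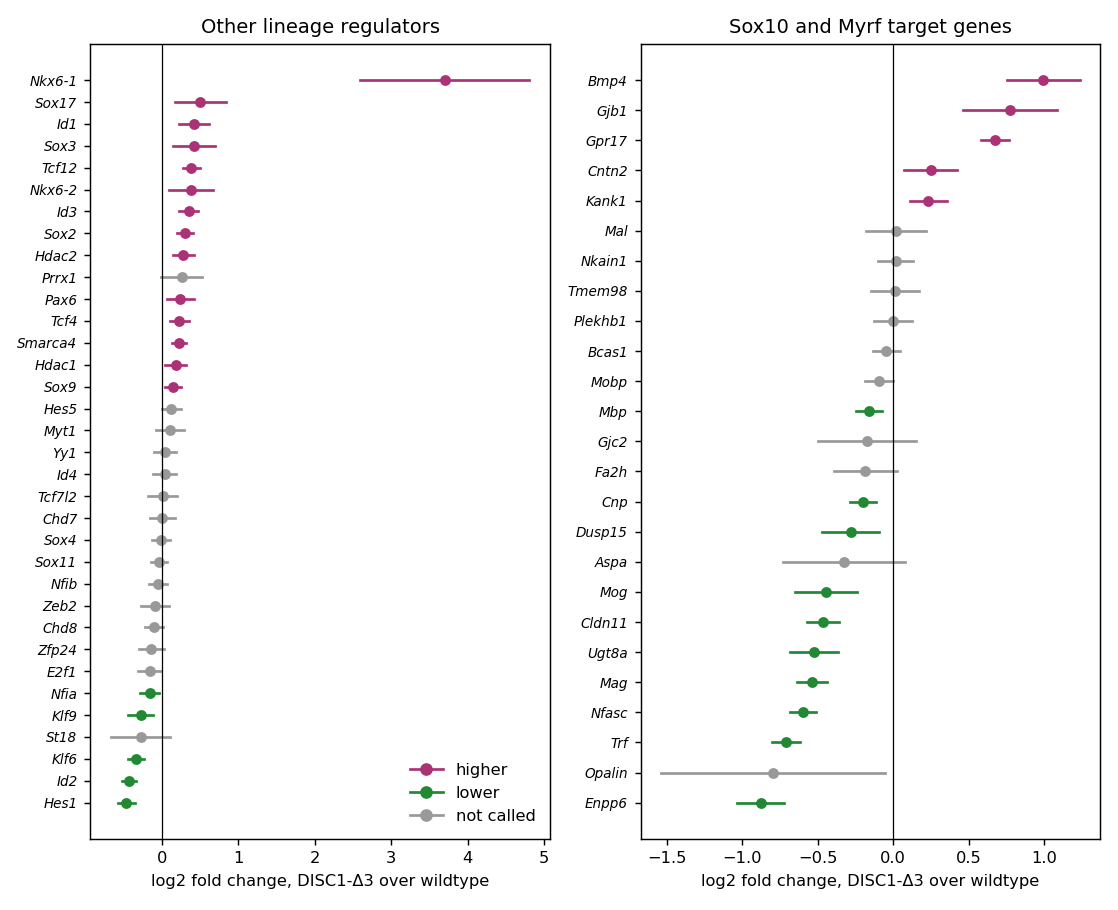
Log2 fold change in DISC1-Δ3 over wildtype OPCs of 34 of the 35 other lineage regulators (left) and 25 of the 26 tested target genes of Sox10 and Myrf (right), with 95% confidence intervals from the edgeR fit of 3 against 3 libraries. Colours mark genes called higher, lower or not called at an adjusted p of 0.05, and the axes differ in range. Nkx6-1 stands out on the left with few reads in wildtype libraries, and the right panel runs from Enpp6 at -0.88 to Bmp4 at 0.995.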

How the data were processed

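Polyadenylated RNA of immunopanned OPCs was sequenced as single 50-base reads, 3 libraries per genotype. Per the labels, the submitters' processing notes name Bowtie2 2.2.5 and mm10; the counting tool, its use of strand and the annotation are not given in the sources used here. The authors deposited, for each of 18211 genes, an expected count, in which reads may be divided between genes (90.2% of values above 0 are whole numbers at the 2 decimals deposited, within 1e-09), and an RPKM to 2 decimals. Another 4 columns of the authors' averages were not used.

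Expected counts were rounded and tested with edgeR 4.0.16 in R 4.3.3 (quasi-likelihood test, TMM scaling, genotype as the only term) for the 13792 genes that reached an RPKM of 0.5 in 3 or more of the 6 libraries. TMM factors were 0.970 to 0.973 in wildtype and 1.02 to 1.04 in DISC1-Δ3 libraries. P-values are two-sided and Benjamini-Hochberg adjusted over these genes (threshold 0.05). Ratios within a library were compared by exact two-sided permutation tests. On simulated counts over 13792 genes, the fit made 200 calls, of which 189 were among the 200 changed genes. It recovered 89% of genes changed by 0.5 and 100% of those changed by 1 (log2), and made 0 calls when no gene changed. The simulation gave every gene the same spread between replicates, and its changed genes were well counted and balanced in direction. No simulated library stood apart as DISC1-Δ3 replicate 3 did, and in the data 39.9% of tested genes were called. These figures therefore check the fit under simpler conditions and need not hold for these libraries.

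The 9 factors and the gene lists were chosen with earlier results of these data known. Of the other regulators and the target genes, the 4 largest rises and 4 largest falls without overlap were named, plus a set of genes named whatever their values; 2 genes of this rule are counted in their lists but not reported here. Alternatives were median-of-ratios scaling, library totals alone, no RPKM filter, an RPKM of at least 1, DESeq2 1.42.0, limma 3.58.1 on log2(RPKM + 1) and log2(RPKM + 0.1), the replicate number as a block, and each library left out; ratios to Pdgfra and to other OPC markers were added after the data were seen. Gene positions and promoter sequences come from RefSeq and exons from GENCODE, on GRCm38.p6, matched by gene ID and symbol; 6 of the 9 factors had a promoter entry.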

Additional observations from a re-analysis of the deposited data

How the results depend on the processing

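All 9 factors kept the direction of their fold change under each of the 14 alternatives, and the calls of Olig1, Olig2, Sox8, Nkx2-2, Myrf, Sox5 and Sox6 did not change. Sox10 was called higher with library totals alone (0.19) and with limma at pseudocounts of 1 (0.18) and 0.1 (0.19). Zfp488 was not called with DESeq2 (-0.37) or with limma at pseudocounts of 1 (-0.28) and 0.1 (-0.30), which left 1 factor called lower. Among other regulators 3 were called lower with both limma fits, and 4 to 9 with a library left out, 9 of them without DISC1-Δ3 replicate 3; over all genes the limma fits called 1774 and 1763 lower, against 2691. Of all calls, 51.1% were higher with TMM scaling and 69.2% with library totals alone or limma. With a library left out, fold changes were 0.26 to 0.35 for Olig1, 0.47 to 0.58 for Olig2, 0.04 to 0.13 for Sox10, 0.19 to 0.30 for Sox8, 0.64 to 0.78 for Nkx2-2, -0.22 to -0.04 for Sox5, 0.03 to 0.17 for Sox6, -0.51 to -0.44 for Myrf and -0.55 to -0.28 for Zfp488. Uncalled values near 0 changed sign with a library left out: Tcf7l2 ranged from -0.04 to 0.05, Id4 from -0.04 to 0.08, Myt1 from -0.01 to 0.17 and Tmem98 from -0.06 to 0.04. The cause of these changes was not tested. Deviations of same-numbered libraries correlated at 0.117, 0.0305 and -0.0340, and the libraries numbered 1 correlated best with each other while those numbered 2 and 3 did not, so the numbers were not taken to pair the libraries; the replicate block called 2774 genes higher and 2655 lower, and changed no call of the 9 factors. Ratios within a library kept their sign without each library and with 0.1 added. The factors with the fewest reads were Nkx2-2 (188 to 407) and Sox5 (272 to 319), and 3 libraries per group limit the exact tests.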

Other observations

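The table lists 19 Sox genes, of which 4 are among the 9 factors. Of the other 15, 13 were tested, and 6 were higher and 1 lower in DISC1-Δ3 OPCs. Over all tested genes, 20.4% were called higher and 19.5% lower. Sox21, a factor of neural progenitors that is related to Sox2, rose from 9.42 RPKM ± 0.463 (SD, n = 3) to 18.0 ± 0.297 (log2 fold change 0.86, SE 0.063, edgeR adjusted p = 6.07e-09), the largest rise among the tested Sox genes. Sox3 rose from 4.11 to 5.83 RPKM (0.42, edgeR adjusted p = 0.0172) and Sox12 from 9.90 to 12.4 RPKM (0.25, edgeR adjusted p = 0.0124). Sox15 was at 0.96, 0.79 and 0.74 RPKM in wildtype and 0.28, 0.31 and 0.13 in DISC1-Δ3 libraries; it is the 1 lower gene counted here, and it passed the expression filter only through the wildtype libraries. Sox4 and Sox11, which are abundant in immature neural cells, had log2 fold changes of -0.01 and -0.04 and did not pass the test. The Sox genes named here were picked with their values in view. Olig3 and Myrfl, the paralogues of the Olig genes and Myrf, were at most 0.11 and 0.06 RPKM in any library and were not tested.

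Over the 6 libraries, the tested genes whose log2(RPKM + 1) followed Olig2 most closely were Tnc (Pearson r = 0.9996), Mta1 (0.9995) and Mmp17 (0.9990). Those closest to Myrf were Zcchc4 (0.9991), Sbno2 (0.9989) and Tor1aip1 (0.9989). These values describe 6 libraries of 2 genotypes that differ in many genes, and carry no test.

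DISC1-Δ3 replicate 3 stood further from its group than the other libraries. The chi-square per degree of freedom between counts was 5.39 and 4.99 for its pairs with DISC1-Δ3 replicates 1 and 2, 2.59 between those 2 libraries, and 1.80 to 2.97 among wildtype libraries. Of the 9 factors, only Zfp488 had DISC1-Δ3 replicate 3 on the other side of all wildtype libraries from the other 2. This was by RPKM, before TMM scaling.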
